A study of Mus musculus with 2 samples.

Results

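The cytosolic ribosomal protein genes were taken as all symbols of the deposited gene table that start with Rpl or Rps followed by a digit, with Rplp0, Rplp1, Rplp2, Rpsa and Fau added and Rps6k kinases and symbols with -ps or -rs left out. This gave 87 of 31053 genes, 52 with large subunit symbols (Rpl) and 35 with small subunit symbols (Rps, Rpsa and Fau). They were examined in single-nucleus RNA sequencing of mouse brown adipose tissue, the fat depot that produces heat. One library came from C57BL/6 mice, an inbred laboratory strain, housed at thermoneutrality (TN), where no extra heat is needed. The other (1cyc) came from C57BL/6 mice taken 4 days after a bout of acute, transient cold. In each library the nuclei of 5 mice had been pooled and sorted for DAPI, a DNA stain, so each condition is 1 library, no test between conditions was possible, and every interval below (95%) covers counting error only.

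A cytosolic ribosome is built from a small and a large subunit, each a scaffold of ribosomal RNA decorated by ribosomal proteins. The proteins are made in the cytoplasm from short, abundant, spliced mRNAs and are carried back into the nucleolus for assembly. Their mRNAs are switched between translation and storage together, through the mTORC1 kinase and the protein Larp1, by a run of C and T bases at the very start of the transcript called the TOP motif. Since the mature mRNAs lie mostly in the cytoplasm, their share in a preparation of nuclei is commonly read as a measure of cytoplasmic RNA in it.

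The start sites below are shown because the TOP motif lies there. The first 6 were chosen for a C and T run at the start and are not typical of the members' annotated starts. Rpl41 and Rpl6, described below and shown next, have no run there, and neither have Rps19, Rpl24, Rplp0 and Rpsa. Runs some bases off an annotated start are not marked, and how exact these starts are was not tested. Each window runs from 30 bases before to 20 bases from the transcript start (RefSeq, GRCm38.p6, the mm10 assembly), and capitals mark the unbroken C and T run that spans the start. Rpl7l1 and Rpl3l are paralogs of Rpl7 and Rpl3. Rps24, Rpl35a and Rpl3l have other annotated starts; for Rps24 and Rpl35a the start with the longest run is shown, the others having a run of 0 for Rps24 and of 4 and 0 for Rpl35a.
Fau, chr19:6057917-6057966, + strand: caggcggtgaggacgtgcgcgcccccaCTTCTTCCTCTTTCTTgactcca
Rps24, chr14:24490648-24490697, + strand: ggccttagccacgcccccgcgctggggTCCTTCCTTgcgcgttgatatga
Rpl35a, chr16:33056452-33056501, + strand: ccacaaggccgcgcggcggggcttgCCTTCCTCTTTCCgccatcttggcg
Rps18, chr17:33955646-33955695, - strand: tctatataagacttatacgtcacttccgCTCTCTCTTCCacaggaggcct
Rplp2, chr7:141447621-141447670, + strand: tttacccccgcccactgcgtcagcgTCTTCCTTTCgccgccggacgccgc
Rpl27a, chr7:109519165-109519214, + strand: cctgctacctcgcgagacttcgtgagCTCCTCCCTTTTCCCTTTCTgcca
Rpl41, chr10:128549149-128549198, - strand: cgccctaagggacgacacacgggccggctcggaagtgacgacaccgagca
Rpl6, chr5:121204471-121204520, + strand: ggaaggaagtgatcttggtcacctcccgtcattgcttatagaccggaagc
Rpl7l1, chr17:46782637-46782686, - strand: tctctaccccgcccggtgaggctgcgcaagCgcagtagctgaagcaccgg
Rpl3l, chr17:24727796-24727845, + strand: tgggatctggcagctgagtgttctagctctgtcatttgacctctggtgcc

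Of 67 members with a start window, 18 (26.9%) had only C or T in the first 5 transcribed bases of any annotated start, against 5.28% of 27025 genes. Runs that miss the annotated start are not in this count, so it does not give the number of members with a TOP motif. In the whole windows of 300 bases, read on both strands, CCGGAAG stood in 38.8% of members against 9.93% of genes, TCGCGAG in 20.9% against 2.22%, and TATAAA in 10.4% against 15.7%. CTTTCC, made of C and T only, stood in 53.7% of members against 29.3% of genes. These letters were chosen after the sequences were seen. The 87 genes lie on 20 chromosomes and are compact, with a median span of 3289 bases against 12680 for all counted genes and a median transcript of 878 bases.

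The 2 libraries differed in depth and in mitochondrially encoded UMIs (molecular counts). TN held 2551 barcodes with a median of 800 UMIs, and 1cyc 4321 barcodes with a median of 378. The lowest barcode had 500 and 262 UMIs, and 6 barcode sequences occurred in both libraries. Mitochondrially encoded transcripts made up 5.74% of UMIs in TN and 14.2% in 1cyc. Brown adipocyte nuclei carried their markers, with Ucp1, the uncoupling protein of brown fat, at 142 CPM (UMIs scaled to a total of 1000000) in TN and 274 in 1cyc, and Cidea at 660 and 859. Haemoglobin, 10.2% of UMIs not mitochondrially encoded in TN and 3.74% in 1cyc, was 0.0415% and 0.0261% in those nuclei, so some free RNA from other cells may be in every value below; its part was not tested.

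Ribosomal protein transcripts were scarce. They gave 8131 UMIs among 2745808 in TN, or 0.296% (0.290 to 0.303), and 3439 among 2469900 in 1cyc, or 0.139% (0.135 to 0.144), so the share in 1cyc was 0.470 times that in TN (0.452 to 0.489). In each library 84 members had a UMI. Rpl13 and Rpl10l, a testis retrogene of Rpl10, had none in either, which allows up to the floor of 3 UMIs per library, or 0.000116% of UMIs not mitochondrially encoded in TN and 0.000142% in 1cyc. That floor covers assigned reads only. Rpl13 has 8 near-identical transcript ends elsewhere and overlaps another counted gene, Gm20388. Whether its reads were lost in assignment was not tested, so its 0 does not show that it was not expressed. The most counted were Rps24 (333 UMIs in TN and 152 in 1cyc), Rpl41, which encodes the shortest ribosomal protein (268 and 125), Fau, a fusion of a ubiquitin-like protein and a small subunit protein (288 and 102), and Rps20 (262 and 96). Large and small subunit members gave near equal counts, at a ratio of 0.907 in TN and 1.05 in 1cyc.

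Much of the difference between the libraries lay in few barcodes. In 12 of the 6872 barcodes, at least 5% of UMIs not mitochondrially encoded were ribosomal protein UMIs. The values just inside that limit were 5.33% in TN and 5.38% in 1cyc, and just outside 3.89% and 4.66%. The 8 such barcodes of TN were 0.314% of its barcodes and held 41.5% of its member UMIs; the 4 of 1cyc held 12.1%. Without them the shares were 0.175% and 0.123%, and the ratio of 1cyc to TN moved to 0.701 (0.669 to 0.734).

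**Figure D1:**
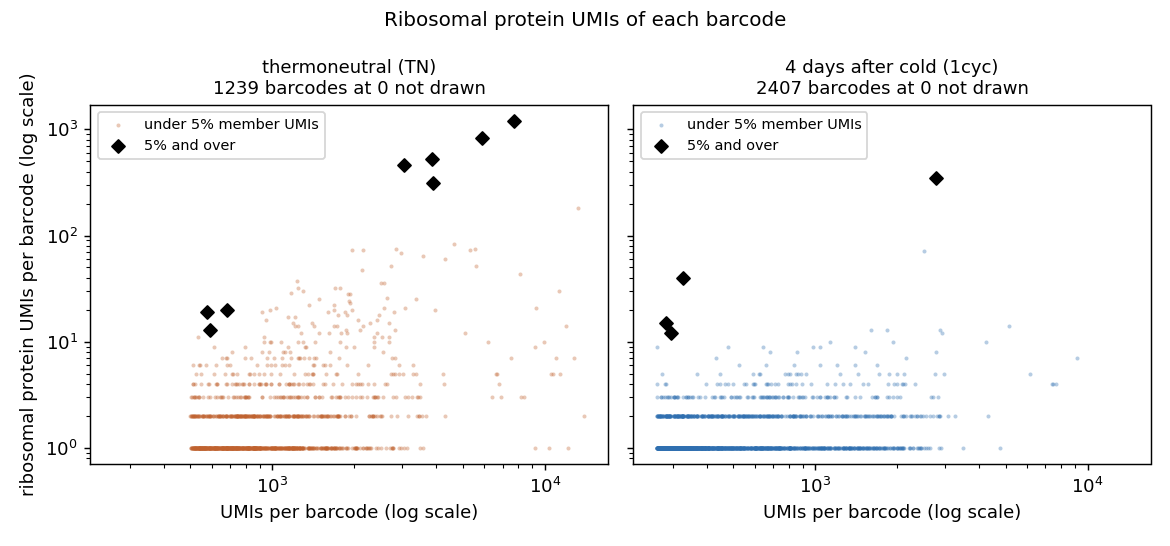
Ribosomal protein UMIs of each barcode (vertical axis, log scale) against all its UMIs (horizontal axis, log scale), TN on the left and 1cyc on the right; black diamonds are barcodes with 5% and over. Barcodes with no ribosomal protein UMI are not drawn. The 5 diamonds of TN with 3050 UMIs and over and the 1 of 1cyc with 2772 stand above the other barcodes of like depth.

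Of the 12, 6 had over 2000 UMIs, and all 6 lay in 1 small cluster, led by Lyz2, Cd74 and Dock2, which mixed markers of several immune classes and was left unnamed. The first, from TN, had 1197 ribosomal protein UMIs of 7734 from 71 members, with 193 UMIs of Lyz2, the lysozyme of macrophages and neutrophils, and 32 of Fcer1g. Another TN barcode of this kind had 314 of 3900, with 13 of Lyz2 and 12 of Fcer1g. Both had 0 UMIs of Cd79a, the B cell receptor chain.

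The other 4 carried B cell genes. In TN they had 825 ribosomal protein UMIs of 5884, 529 of 3865 and 457 of 3050, with 16, 13 and 1 UMIs of Cd79a and 36, 38 and 24 of Cd74, the invariant chain of antigen presentation. The 1 from 1cyc had 349 of 2772, with 7 of Cd79a and 52 of Cd74. None of the 4 had a Lyz2 UMI.

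In these 6 barcodes Malat1, a long noncoding RNA kept in the nucleus, was 0.672% to 3.14% of UMIs. Over barcodes of at least 500 UMIs with under 0.25% ribosomal protein UMIs, Malat1 was 12.3% of UMIs not mitochondrially encoded. Their mitochondrially encoded share was 2.70% to 4.66%, under the usual limit of 5%. The remaining 25 nuclei of the same cluster held 33 ribosomal protein UMIs together, 0.114% (0.0723 to 0.171) in TN and 0.149% (0.0716 to 0.274) in 1cyc, against 3671 in the 6. The 6 were chosen by this share, so the gap is a description. The other 6 of the 12 had 283 to 681 UMIs and 12 to 40 ribosomal protein UMIs, and 3 of them were over 40% mitochondrially encoded.

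Over barcodes of at least 500 UMIs from both libraries, other RNA moved with the ribosomal protein share. From under 0.25%, to 0.25% to 1%, 1% to 5%, and 5% and over, short cytoplasmic mRNAs (a list of 15 such as Hsp90ab1 and Actb) went from 0.0582% to 0.186%, 0.767% and 2.18%. Malat1 went from 12.3% to 10.1%, 7.48% and 2.06% over the same groups of 3344, 575, 80 and 9 barcodes. These are descriptions of barcodes grouped by the members themselves. Among the 80 barcodes from 1% to 5%, 58 were named endothelial when all barcodes were clustered.

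Among nuclei with under 5% mitochondrially encoded UMIs, the share of ribosomal protein UMIs depended on the class. Adipocyte nuclei of TN had 688 among 1025728 UMIs, 0.0671% (0.0622 to 0.0723), and those of 1cyc 650 among 963426, 0.0675% (0.0624 to 0.0729). The ratio was 1.01 (0.902 to 1.12), so the difference of the whole libraries was not seen in adipocyte nuclei at this depth. Fibroblast or progenitor nuclei were close to this, at 0.0894% (0.0763 to 0.104) and 0.0860% (0.0668 to 0.109). Skeletal muscle nuclei had 0.0610% and 0.0771% and pericytes 0.0910% and 0.156%, and in both classes the intervals of the libraries overlapped. The cluster named erythroid had 0.151% in its 17 TN nuclei, where haemoglobin was 79.6% of UMIs not mitochondrially encoded. With haemoglobin and mitochondrially encoded UMIs out of the total, the share there was 0.750%, against 0.972% in endothelial nuclei of TN. The clustering of all barcodes named 7 TN barcodes erythroid, with 45 ribosomal protein UMIs among 75122, against 144 among 95196 in the 17. How far the 0.750% came from nuclei of other classes was not tested, so it is not read as an erythroid trait. The 7 nuclei of this erythroid cluster in 1cyc had 1 haemoglobin UMI among 5115, which goes against the name, and are not compared. Smooth muscle nuclei had 0 of 6522 UMIs in TN, which allows up to 0.0565%, and 1 UMI in 1cyc.

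Adipocyte nuclei formed 3 clusters of unequal make-up by library. The cluster led by Slc25a42, Rnf182 and Ppara held 655 TN and 361 1cyc nuclei and had 0.0693% and 0.0724%. The one led by Ppp1r3b, Ucp1 and Elovl6 held 244 and 528 and had 0.0601% and 0.0667%. The last, with Nnat, Slc7a10 and Adrb3 in front, held 121 and 38 and had 0.0737% and 0.0537%. The intervals of these 6 values overlapped.

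Endothelial nuclei had the highest share of the named classes. The TN nuclei of the cluster named erythroid came near them once haemoglobin was left out, a value that is uncertain as described above. The 43 of TN had 665 among 71010 UMIs, 0.936% (0.867 to 1.01), and the 17 of 1cyc 126 among 16201, 0.778% (0.648 to 0.925). Against adipocyte nuclei of the same library the share was 14.0 times as high in TN (12.5 to 15.6) and 11.5 times in 1cyc (9.45 to 14.0). The excess was uneven: 10 of the 43 TN nuclei had 1% and over and held 443 of the 665 UMIs, and 2 of the 17 1cyc nuclei held 76 of 126. The 48 endothelial nuclei under 1%, over both libraries, still had 0.449% (0.397 to 0.506).

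The 12 endothelial nuclei of 1% and over carried endothelial markers like the rest, at 1.36% against 1.14% of UMIs not mitochondrially encoded, and Pecam1, the platelet endothelial adhesion molecule, at 0.107% against 0.0941%. Their median mitochondrially encoded share was 3.56% against 3.75%, all of these nuclei having been kept for a share under 5%. They had more short cytoplasmic mRNAs (0.895% against 0.380%), more Fabp4, a fatty acid carrier of capillary endothelium and fat cells (2.70% against 0.862%), and less Malat1 (6.95% against 8.77%). The Rps6k kinase genes, which share only the symbol stem with the members, were at 0.0682% (0.0390 to 0.111) and 0.0941% (0.0713 to 0.122).

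**Figure D2:**
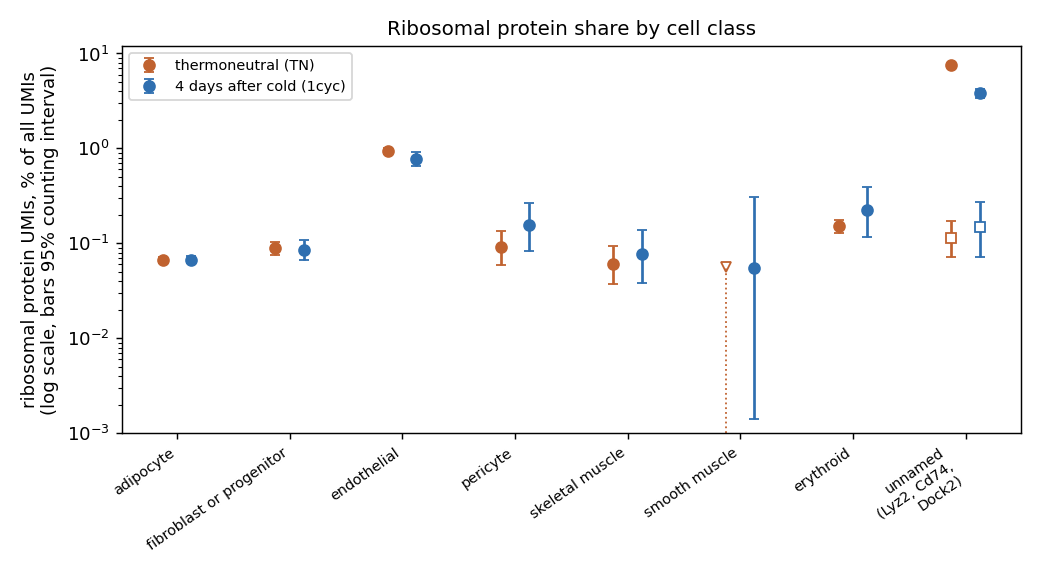
Share of ribosomal protein UMIs among all UMIs (log scale) by cell class, TN in orange and 1cyc in blue, with 95% counting intervals; open squares are the unnamed cluster without its barcodes of 5% and over, and the open triangle is the upper limit where no UMI was seen. Endothelial nuclei lie at 0.936% in TN and 0.778% in 1cyc, while adipocyte nuclei lie at 0.0671% and 0.0675%. The 1cyc point of the cluster named erythroid stands for 7 nuclei with 1 haemoglobin UMI.

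No member reached 100 UMIs over the adipocyte nuclei of both libraries, the minimum set for comparing genes, so the members are compared at 20 UMIs, which 28 reached. Of these, 4 were at least 1.5-fold higher in 1cyc and 6 at least 1.5-fold lower, against 15.1% and 7.66% of all 7817 genes with 20 UMIs. Their median log2 ratio was 0.09, the same as the 0.09 of all genes. Only 2 of the 28 intervals left out 1, those of Rpl7l1 and Rpl6, named here after their values were seen.

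Small and large subunit members gave 346 and 342 UMIs in adipocyte nuclei of TN, and 308 and 342 in those of 1cyc. The single members with most, Rps14 and Rps24, were of the small subunit. Rps14, of the small subunit platform, had 47 UMIs in TN and 33 in 1cyc, 45.8 and 34.3 CPM, a ratio of 0.748 (0.464 to 1.19). Its annotated span of 31449 bases overlaps Ndst1, so some of these UMIs may belong to that gene. Rps24 had 20 and 33 UMIs, 19.5 and 34.3 CPM, a ratio of 1.76 (0.979 to 3.23). Rps19, one of the genes mutated in Diamond-Blackfan anaemia, had 18 and 18, and Rps18 had 18 and 16. Rps20 had 21 and 9, a ratio of 0.456 (0.184 to 1.04). Rps20 was named after its values were seen. All 5 intervals or counts left the libraries within counting error, those of Rps24 and Rps20 only just.

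Of the large subunit, Rpl17 had 19 UMIs in each library, Rpl24 17 and 19, Rpl35a 20 and 12, and Rpl41 13 and 18. Rpl6 had 20 and 5, 19.5 and 5.19 CPM, a ratio of 0.266 (0.0781 to 0.731). Rplp0, Rplp1 and Rplp2 form the acidic stalk that recruits elongation factors. Rplp0 had 4 and 4, Rplp1 7 and 5, and Rplp2 12 and 19 UMIs, the last at a ratio of 1.69 (0.777 to 3.81). Rps27a, which is made as a fusion with ubiquitin, had 17 and 10, Fau 10 and 5, and Rpsa, also known as the laminin receptor precursor, 17 and 9. No stalk or fusion member had an interval that left out 1.

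The paralogs are given beside their partners, with no test. Rpl7l1 had 11 UMIs in TN and 23 in 1cyc adipocyte nuclei, a ratio of 2.23 (1.04 to 5.06), against 4 and 6 for Rpl7, yet in the 12 barcodes of 5% and over it had 1 UMI against 42 for Rpl7. Rps27l, a paralog induced by p53, had 14 and 10 in adipocyte nuclei and 3 in the 12 barcodes. Rps27 had 0 and 2, and 3 in the 12 barcodes, and Rps27rt, whose transcript end is identical to that of Rps27, had 3 and 3, and 67 in the 12 barcodes. Rpl3l, a paralog of striated muscle, had 2 and 4 against 14 and 15 for Rpl3, and 0 against 28. Rpl22l1 had 0 and 3 against 11 and 13 for Rpl22, and 2 against 46, too few to tell a difference. Rpl10l had none against 2 and 0 for Rpl10. Rpl36al had 0 and 1 against 0 and 1 for Rpl36a, and 17 against 0 in the 12 barcodes. Rpl10 and Rpl36a each match another counted gene at 100% identity at the transcript end, so their low counts are uncertain. Rpl39l, a testis paralog, had 1 UMI in all, against 139 for Rpl39, and Rps4l was not listed beside Rps4x. Rps19bp1, which regulates the deacetylase Sirt1 and is taken by the rule though it is no ribosomal protein, had 2 and 7 in adipocyte nuclei and 0 in the 12 barcodes.

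The make-up of the ribosomal protein UMIs thus differed between adipocyte nuclei, with 1338 of them, and the 12 barcodes, with 3790. As a share of these totals, 19 members were higher in the 12 barcodes and 19 lower, with intervals that left out 1. Fau was 1.12% in adipocyte nuclei and 4.91% in the 12 barcodes, 4.38 times as high (2.59 to 7.98), and Rpl32 was 0.299% and 2.32%, 7.77 times (2.93 to 29.1). On the other side Rps14 was 5.98% and 1.35%, 0.225 times (0.155 to 0.324), Rplp2 2.32% and 0.185%, and Rpl7l1 2.54% and 0.0264%. Rpl31 had 18 UMIs in adipocyte nuclei, 1.35%, and 0 in the 12 barcodes, where 3 UMIs would be 0.0792%. Rpl32, which had the highest ratio, and Rpl31, one of 7 members with adipocyte UMIs and none in the 12 barcodes, were chosen after their values were seen. Cell type differs along with compartment between these barcodes, so the 2 cannot be told apart.

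**Figure D3:**
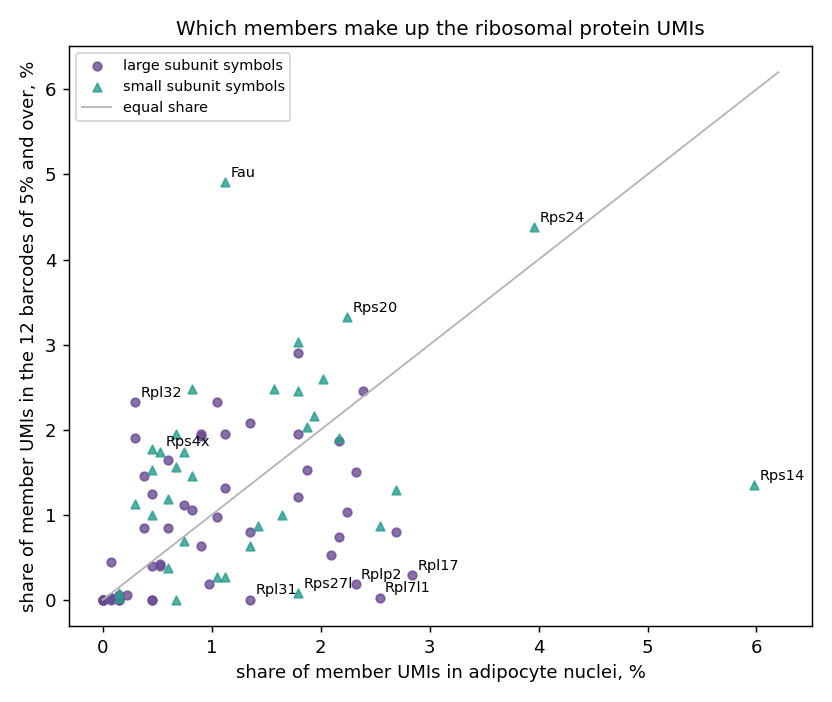
Share of each member among the ribosomal protein UMIs of adipocyte nuclei (horizontal axis, %) and of the 12 barcodes of 5% and over (vertical axis, %); circles are large and triangles small subunit symbols and the grey line marks equal shares. Fau lies far above the line, and Rps14, Rpl7l1, Rplp2 and Rpl17 far below.

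Gene length went along with this. Members with a span above the median of 3289 bases gave 67.0% of ribosomal protein UMIs in adipocyte nuclei, 51.6% in endothelial nuclei and 51.7% in the 12 barcodes. Across the 87 members, Spearman's rho between span and UMIs was 0.386 in adipocyte nuclei, 0.0414 in endothelial nuclei and 0.0430 in the 12 barcodes, while with transcript length it was 0.0873, -0.0173 and 0.0737. Members' UMIs in endothelial nuclei and in the 12 barcodes were ranked alike (rho 0.869), and those of adipocyte nuclei less so (0.473), over counts that are low for most members. The 24 members that overlap another counted gene gave 27.2% of UMIs in adipocyte nuclei, 23.8% in endothelial nuclei and 22.4% in the 12 barcodes. Genes are not independent replicates, and whether intronic reads were counted is not given in the sources used here.

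Some members have near-identical copies, and how reads were assigned among these was not tested. Of the 87, 39 had another annotated transcript that matched the last 200 bases of theirs at 95% identity or more over at least 150 bases, up to 37 for Rps2, and for 12 that copy was itself a counted gene. Rps27, with 4 UMIs in TN and 2 in 1cyc, shares its end at 100% identity with Rps27rt, also a member, which had 106 and 32. Rpl9 had 9 and 10, and Rps12 7 and 6. The 18 members with 5 or more copies had a median of 60.5 UMIs over both libraries, the 21 with 1 to 4 copies 148, and the 48 with none 136, so the median did not go one way with the number of copies. Counts of single members with copies are uncertain.

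Summed over barcodes, the ribosomal protein share was highest in the barcodes with most mitochondrially encoded UMIs in both libraries. As a share of UMIs not mitochondrially encoded, it was 0.319% (0.311 to 0.328) in TN barcodes under 5% mitochondrially encoded, 0.238% (0.228 to 0.249) from 5% to under 20%, and 1.21% (1.12 to 1.29) at 20% and over. In 1cyc it was 0.116% (0.110 to 0.122), 0.178% (0.165 to 0.192) and 0.243% (0.230 to 0.256). As a share of all UMIs the values were 0.312%, 0.217% and 0.797% in TN and 0.114%, 0.158% and 0.165% in 1cyc. Without the 12 barcodes the lowest band of TN was 0.120% (0.115 to 0.125), and the order was the same in both libraries. The highest band was then 9.51 times the lowest in TN (8.72 to 10.4) and 2.81 times in 1cyc (2.59 to 3.05). The direction in 1cyc reversed with the median per barcode, which was 0.0353% in the lowest band and 0 in the other bands, where most barcodes had no ribosomal protein UMI. The mean share per barcode in 1cyc kept the direction, at 0.0988%, 0.170% and 0.247%. Its barcodes had a median of 917, 349 and 328 UMIs in these bands. In TN the medians of the share were 0.0127%, 0.0818% and 0.400%.

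Below 2% mitochondrially encoded UMIs the libraries had the same low level. From 0 to 1% it was 0.0747% in TN (0.0660 to 0.0842) and 0.0724% in 1cyc (0.0630 to 0.0827), and from 1% to 2% 0.0746% and 0.0706%. From 2% to 5% the values without the 12 barcodes were 0.157% and 0.108%, and from 20% to 40% 1.03% and 0.235%. The bin of 40% and over holds 18 barcodes in TN, at 1.84%, and 170 in 1cyc, at 0.332%.

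**Figure D4:**
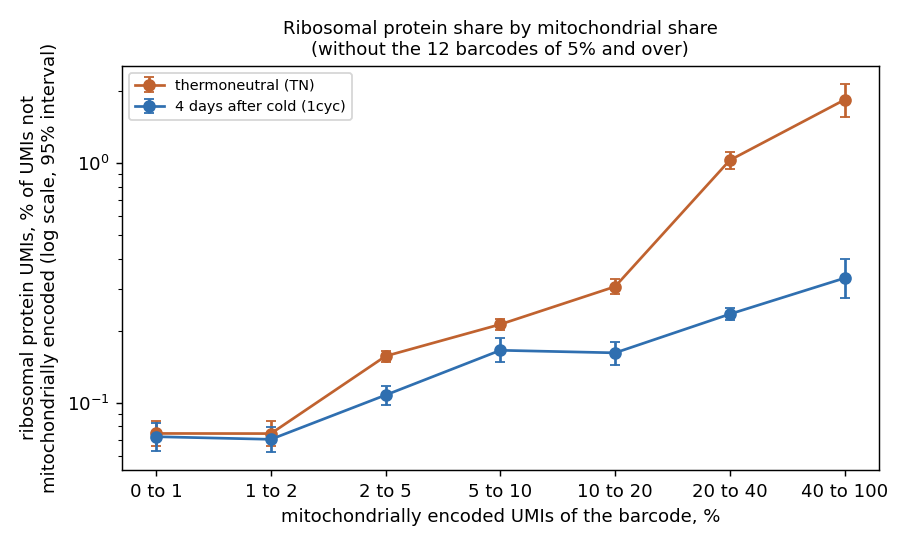
Share of ribosomal protein UMIs among UMIs not mitochondrially encoded (log scale) in barcodes grouped by their mitochondrially encoded share, TN in orange and 1cyc in blue, without the 12 barcodes of 5% and over and with 95% counting intervals. The libraries coincide below 2% and part above it.

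The high band was filled by different barcodes in the 2 libraries. In TN it had 84 barcodes with a median of 716 UMIs; 29 of them (34.5%) were named endothelial and held 654 of its 777 ribosomal protein UMIs (84.2%). One of these, with 13226 UMIs, gave 181, and without it and the 12 barcodes the band was at 1.01% (0.924 to 1.09). In 1cyc it had 2275 barcodes with a median of 328 UMIs, 5 of them (0.220%) named endothelial, with 17 of 1438 ribosomal protein UMIs. Barcodes with under 200 genes, 51 in TN and 1585 in 1cyc over all bands, were not clustered and could not be named. How the 2 percentages depend on this was not tested.

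With the barcodes named endothelial and the 12 left out, the libraries were near each other in the lower bands. The share was 0.0772% in TN and 0.0751% in 1cyc under 5%, a ratio of 0.973 (0.890 to 1.06), and 0.119% and 0.131% from 5% to under 20%, a ratio of 1.10 (0.978 to 1.23). At 20% and over it was 0.375% from 110 UMIs and 0.239% from 1409, a ratio of 0.638 (0.525 to 0.782). Over all bands together 1cyc was then higher, 0.0940% in TN and 0.131% in 1cyc, a ratio of 1.40 (1.32 to 1.48), with 2275 of its 4321 barcodes in the high band against 84 of 2551. The ratio of the whole libraries thus went from 0.517 on the same scale to above 1. Barcodes with under 200 genes held 24.4% of ribosomal protein UMIs in 1cyc and 3.23% in TN. Any endothelial ones among them had no class and were not left out.

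Within the adipocyte class of a clustering of all barcodes, the share also went up with the band, over a narrower range. It was 0.0684%, 0.0843% and 0.104% in TN and 0.0686%, 0.112% and 0.150% in 1cyc, of UMIs not mitochondrially encoded. The middle band was 1.23 times the lowest in TN (1.09 to 1.40) and 1.64 times in 1cyc (1.37 to 1.95), and the highest rested on 9 and 11 UMIs. In 1cyc an unnamed cluster of 1187 barcodes, led by mitochondrially encoded genes, had 0.235% at 20% and over, and 1585 barcodes with under 200 genes, left out of that clustering, held 24.4% of the library's ribosomal protein UMIs. For these shallow barcodes a nucleus with cytoplasm and an empty droplet with free RNA cannot be told apart.

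Gene by gene, most members were higher in the high band. In 1cyc, 41 of 58 members with 20 UMIs were at least 1.5-fold higher at 20% and over than under 5%, and 1 lower, where 16.0% and 8.36% of all 8263 genes were. In TN 60 of 67 were higher and 2 lower, where 31.8% and 29.3% of 7801 genes were. The median log2 ratio of members was 1.14 in 1cyc and 1.83 in TN, that of all genes 0.05 and 0.25. Members with 100 UMIs in the 1cyc bands were Rps24, with 59 UMIs under 5% and 66 at 20% and over, a ratio per UMI not mitochondrially encoded of 2.18 (1.51 to 3.15), and Rpl41, with 45 and 62, a ratio of 2.69 (1.80 to 4.03). Rps20, singled out here for its size, had 21 and 61, a ratio of 5.66 (3.40 to 9.79). Rps14 had 45 and 32, a ratio of 1.39 (0.853 to 2.23). The 1 member that was lower was Rps27l, with 16 and 4, a ratio of 0.487 (0.119 to 1.51), an interval that held 1.

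Over all barcodes without the 12, 31 members had 100 UMIs over both libraries. Of these 14 were at least 1.5-fold lower in 1cyc and 0 higher, where 11.7% and 8.52% of all 6173 genes were; no test was possible. With UMIs not mitochondrially encoded as the total, 9 were lower and 0 higher. Rpl6 had 73 UMIs in TN and 29 in 1cyc, a ratio of 0.438 (0.275 to 0.682). Rps9 had 71 and 65, a ratio of 1.01 (0.710 to 1.43). Both were chosen after their values were seen. Barcodes named endothelial were 12.5% of UMIs in TN and 2.37% in 1cyc, and they held 32.8% and 10.3% of the ribosomal protein UMIs.

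Other lists of genes, chosen by function, did not all go with the ribosomal proteins. Without the 12 barcodes, short cytoplasmic mRNAs were 4.16 times as high at 20% and over as under 5% in TN (3.61 to 4.78) and 2.65 times in 1cyc (2.38 to 2.95). The nuclear-encoded respiratory chain was 4.73 and 2.16 times as high, and translation factors went from 0.0672% to 0.201% of UMIs in TN and were 1.24 times as high in 1cyc (1.11 to 1.38). Ribosome biogenesis factors, which act in the nucleolus, were at 1.07 (0.754 to 1.47) and 0.884 (0.789 to 0.989). The mTORC1 and MYC regulators of ribosome production were at 1.01 (0.785 to 1.28) and 0.994 (0.913 to 1.08). Nuclear noncoding RNAs, mostly Malat1, were at 0.761 in TN but 1.20 in 1cyc. Mitochondrial ribosomal proteins, which serve the organelle's own ribosome, were at 1.65 and 1.23.

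In TN the lists were ordered otherwise between endothelial and adipocyte nuclei, with the respiratory chain lower in the order. In endothelial nuclei, ribosomal proteins were 14.1 times and short cytoplasmic mRNAs 15.6 times as high (13.4 to 18.1) per UMI not mitochondrially encoded. Translation factors were 3.18 times, the nuclear-encoded respiratory chain 1.89 times and ribosome biogenesis factors 1.10 times (0.809 to 1.46). Nuclear noncoding RNAs were 0.637 times.

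**Figure D5:**
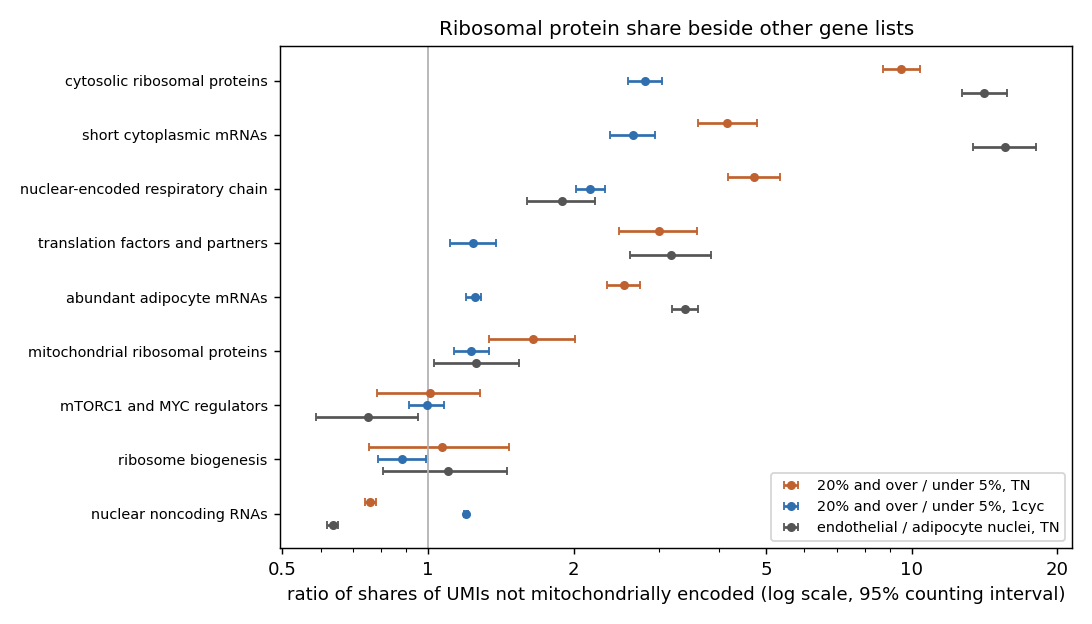
Ratio of list shares of UMIs not mitochondrially encoded (log scale, 95% counting intervals) for barcodes of 20% and over against under 5% mitochondrially encoded UMIs in TN (orange) and 1cyc (blue), and for endothelial against adipocyte nuclei in TN (grey). Cytosolic ribosomal proteins reach 9.51 and 14.1, while ribosome biogenesis factors lie near 1.

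In adipocyte nuclei, where ribosomal proteins were at 1.00 between 1cyc and TN per UMI not mitochondrially encoded (0.897 to 1.11), genes of ribosome production were measured more deeply. Ribosome biogenesis factors together were at 1.41 (1.28 to 1.56), with 3 of 6 measured genes at least 1.5-fold higher in 1cyc and 0 lower, where 6.73% and 3.89% of all 3418 genes with 100 UMIs were. Mdn1, the ATPase that remodels the pre-large subunit, had 55 UMIs in TN and 89 in 1cyc, a CPM ratio of 1.72 (1.22 to 2.46), and Taf1d, of the RNA polymerase I factor SL1, 99 and 138, a ratio of 1.48 (1.14 to 1.94). Among mTORC1 and MYC regulators, 2 of 10 were 1.5-fold higher and 0 lower, against the same 6.73% and 3.89%. Flcn, an upstream regulator of mTORC1, had 51 and 125, a ratio of 2.61 (1.87 to 3.69). Rps6kb1, the S6 kinase, had 293 and 198, a ratio of 0.719 (0.598 to 0.865), and Larp4 231 and 236.

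Translation factors had 1 of 4 measured genes at least 1.5-fold higher and 0 lower, again against 6.73% and 3.89%; lists of 4 to 10 genes are too short to read much from such counts. Pabpc1, the cytoplasmic poly(A) binding protein and itself a TOP mRNA, had 49 UMIs in TN and 100 in 1cyc, a ratio of 2.17 (1.53 to 3.12), while Eif4a2 had 101 and 83 and Eif3a 96 and 103. Of the other lists, Hsp90ab1 was at 1.35, Atp5b at 1.17 and Cox5a at 0.923, Mrps9 at 0.967 and Mrps28 at 1.05. Among abundant adipocyte mRNAs Fabp4 was at 1.11 and Cd36 at 0.952, while Acly and Scd1, enzymes of fatty acid synthesis, were at 2.67 and 2.84. Neat1 was at 1.64 and Malat1 at 0.898, mt-Co1 at 0.657 and mt-Co3 at 0.807, and Hbb-bs at 0.652 and Hba-a1 at 0.630.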

How the data were processed

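Nuclei of brown adipose tissue were counted in 1 library per condition. The deposited values are unnormalised UMI counts; alignment to mm10 and counting used Cell Ranger 3, per the submitters' processing notes (3.1.0 per the file headers). Neither the annotation release nor the treatment of intronic reads is stated in the sources used here. Members were summed over barcodes and divided by all UMIs or by those not mitochondrially encoded. For classes, barcodes with at least 200 genes and under 5% mitochondrially encoded UMIs, less 19 Scrublet doublets, were normalised to 10000 UMIs and clustered together in scanpy 1.11.5 (2000 variable genes, 30 components, Leiden resolution 0.6), without members and mt- genes. A name needed at least 3 markers at 1.5-fold; naming thresholds were set after clusters were seen. A second clustering took all barcodes of at least 200 genes. Shares have exact Clopper-Pearson and ratios exact conditional binomial intervals (95%). Gene comparisons needed 100 UMIs over both sums, and 20 as an alternative. The scaling alternative TMM came from edgeR 4.0.16. Ratio and interval scripts were tested on simulated data.

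Positions came from GENCODE M21 and matches of transcript ends from BLAST+ 2.17.0; all 87 members had an annotation. Named members were those with most adipocyte UMIs, paralog pairs, stalk and fusion genes, the Rps19bp1 gene, members without UMIs and, of each list, the 2 genes with most adipocyte UMIs and any 2-fold apart. The rule's ranks by ratio needed 100 UMIs and named none in adipocyte nuclei. The members, lists and rules were chosen with earlier results of these data known, and the 5% limit after the shares were seen. Values of some genes that the rule names are not reported here.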

Additional observations from a re-analysis of the deposited data

Results flagged for a closer look

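Symbols that the rule left out also carried UMIs. Of 9 symbols with -ps, 7 had a UMI, 388 in all. Rpl9-ps6 had 200 UMIs (145 in TN and 55 in 1cyc) against 19 for Rpl9, whose last 200 transcript bases it matches at 100% identity. Rps12-ps3 had 131 (83 and 48) against 13 for Rps12, and Rpl27-ps3 had 52 (41 and 11) against 6 for Rpl27, both also at 100% identity. Each stood above the limit of 3 counts. In the 12 barcodes of 5% and over, the 9 symbols had 105 UMIs.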

How the results depend on the processing

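No paired analysis was possible because each condition is 1 library. The library ratio of 1cyc to TN (0.470) was 0.517 per UMI not mitochondrially encoded, 0.445 over barcodes of 500 UMIs, 0.439 without haemoglobin, 0.701 without the 12 barcodes, and 0 as a ratio of medians per barcode, since most 1cyc barcodes hold no member UMI. The ratio of the highest to the lowest band (3.77 in TN, 2.10 in 1cyc) was 2.56 and 1.45 per all UMIs, 9.51 and 2.81 without the 12 barcodes, and 31.5 and 0 as medians per barcode; the last is the one reversal. The adipocyte ratio (1.01) was 1.15 at a 2% mitochondrial limit and 0.929 to 1.02 otherwise. Endothelial over adipocyte (14.0 and 11.5) was 10.5 and 8.02 at a 10% limit, and at 2% no endothelial class was found. In the clustering of all barcodes, 54 TN and 26 1cyc barcodes under 5% were named endothelial. Their share of all UMIs was lower, 0.827% and 0.581%, against 0.0667% and 0.0673% in adipocyte barcodes under 5%. Members 1.5-fold apart in adipocyte nuclei were 0 at 100 UMIs, where none was measured, so that 0 says nothing about them. At 20 UMIs they were 10 of 28, where 15.1% of all 7817 genes were higher and 7.66% lower. With no minimum they were 40, for which no share over all genes is given here. Members higher in the high band were 21 of 21 in TN at 100 UMIs, where 659 of all 2908 genes were. At 20 UMIs they were 60 of 67, where 31.8% of genes were. Without the 12 barcodes they were 2 of the 2 measured at 100 and 54 of 55 at 20. In 1cyc they were 2 of 2 at 100, where 173 of all 3199 genes were, and 41 of 58 at 20, where 16.0% were. Over 1cyc barcodes of 500 UMIs they were 0 at 100, where none was measured, and 28 of 38 at 20. Over all barcodes without the 12, 14 of 31 members were lower in 1cyc at 100 UMIs, where 725 of all 6173 genes were. At 20 UMIs 27 of 71 were lower, where 1629 of all 11086 genes were. Per UMI not mitochondrially encoded, 9 of 31 were lower at 100 UMIs. For the alternative totals and sets of barcodes the share over all genes is not given here. Leaving out the 12 barcodes, and the comparison of genes over all barcodes, were chosen after seeing the data. Except where the alternative itself shows it (fewer genes or barcodes), the cause was not tested. In adipocyte nuclei 59 of 87 members had under 20 UMIs, which limits what single members can show.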
